A study of Mus musculus with 13 samples.

Results

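The semaphorins, ephrins, Slits, netrins and their receptors were followed in the CA1 region of mouse organotypic entorhino-hippocampal tissue cultures after removal of one of its excitatory inputs. Members were chosen by gene symbol alone. Every symbol of the Sema3 to Sema7, Plxna to Plxnd, Nrp, Epha, Ephb, Efna, Efnb, Robo, Slit, Ntn, Unc5 and Dcc families was taken, and antisense transcripts were left out. This gave 69 of 55291 gene symbols, 35 of ligands and 34 of receptors, in 12 families. The pattern matched 72 symbols, and the 3 set aside were opposite-strand transcripts of Plxna4.

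The cultures came from wildtype C57BL/6 mice of either sex, were prepared at postnatal day 4 to 5 and matured for at least 18 days. The design had 5 non-lesioned control cultures, 4 cultures with a Schaffer collateral lesion (SCL), which cuts the CA3 input to CA1, and 4 with an entorhinal cortex lesion (ECL), which cuts the perforant path. CA1 of 1 culture, without the scar, was isolated by scalpel 3 days after the lesion and made into 1 polyA RNA library, and no drug or transgene differed between these groups. The preparation text in the labels speaks of the dentate gyrus, whereas titles, source names and the methods name CA1. The question put to the guidance genes was which of them changed after either lesion, and whether any changed more after one lesion than after the other.

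Axon guidance molecules tell growing axons where to extend, turn or stop. Most secreted class 3 semaphorins bind neuropilins, which signal with plexins of class A, while most membrane-bound semaphorins bind plexins directly. Ephrins and Eph receptor tyrosine kinases are both held at the cell surface and can signal into either cell. Slits repel axons through Robo receptors, and netrins attract or repel through Dcc and the Unc5 receptors. In the hippocampus these systems are known for sorting incoming fibres into layers and, at later stages, for shaping dendritic spines and synapses.

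The promoters of the 3 guidance genes that fell after both lesions, and of Slit2, are printed. Slit2 was called after SCL only, and it was 1 of 2 called genes with a match to the EGR element described here. Each runs from 250 bases before to 50 bases after a RefSeq transcription start on GRCm38.p6, read 5′ to 3′ along the gene's strand. Capitals mark the only match in these 4 windows to an element of the activity-induced EGR transcription factors, searched as GCGNGGGCG on both strands. The Epha5 window lies at chr5:84417333-84417632 on the minus strand, the Sema4b window at chr7:80186620-80186919, the Ntn4 window at chr10:93640799-93641098 and the Slit2 window at chr5:47982905-47983204, all 3 on the plus strand. Sema4b has another window, at chr7:80198338-80198637, which also held no EGR element and is not printed.
Epha5: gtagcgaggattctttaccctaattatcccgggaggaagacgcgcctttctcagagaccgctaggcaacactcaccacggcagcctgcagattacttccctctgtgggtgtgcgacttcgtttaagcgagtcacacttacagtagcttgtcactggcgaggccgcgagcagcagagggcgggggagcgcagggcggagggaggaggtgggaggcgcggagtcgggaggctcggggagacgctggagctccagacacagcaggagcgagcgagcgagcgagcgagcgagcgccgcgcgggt
Sema4b: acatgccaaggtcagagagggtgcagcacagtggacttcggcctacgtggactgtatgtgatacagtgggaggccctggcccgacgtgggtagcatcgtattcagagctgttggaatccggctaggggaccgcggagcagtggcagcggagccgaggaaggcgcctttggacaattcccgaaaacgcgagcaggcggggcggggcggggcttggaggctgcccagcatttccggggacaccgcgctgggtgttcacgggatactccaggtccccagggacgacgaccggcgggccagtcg
Ntn4: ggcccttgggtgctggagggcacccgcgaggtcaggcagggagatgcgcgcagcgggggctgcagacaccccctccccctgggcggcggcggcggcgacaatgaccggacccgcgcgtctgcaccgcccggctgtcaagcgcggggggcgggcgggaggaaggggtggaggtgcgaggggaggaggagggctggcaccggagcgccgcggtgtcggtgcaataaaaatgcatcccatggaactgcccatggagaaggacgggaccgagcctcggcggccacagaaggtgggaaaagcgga
Slit2: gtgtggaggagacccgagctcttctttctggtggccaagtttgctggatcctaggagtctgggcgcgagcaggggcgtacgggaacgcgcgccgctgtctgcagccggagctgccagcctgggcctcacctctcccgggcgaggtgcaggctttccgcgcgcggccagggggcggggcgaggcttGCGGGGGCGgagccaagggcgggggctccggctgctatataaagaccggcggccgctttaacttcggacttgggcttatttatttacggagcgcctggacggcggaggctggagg

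These windows were rich in G and C, with 64.3% in Epha5, 65.3% in Sema4b, 72.0% in Ntn4 and 68.0% in Slit2. Promoters were found for 59 of the 69 members, 75 windows in all. The EGR element occurred in 14 of the 75 (18.7%), against 5.55% of 32851 promoters of the same length. The GC box, searched as GGGCGG on both strands and able to overlap the EGR element, occurred in 70.7% of member promoters against 35.7% of all promoters. A cAMP response element (TGACGTCA) was found in 1.33% against 1.79%, and an AP-1 element (TGANTCA) in 4% against 7.81%. Of the 9 genes called below that had a window, Efna1 and Slit2 held the EGR element, and 8 held a GC box, Robo1 being the exception. These matches describe letters in a window and were not compared with binding. The member promoters and all promoters were not matched for G and C content, so the shares do not separate the elements from base composition.

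Library totals ran from 14371152 to 56786613 counts, with 14371152 to 21092612 in controls, 16405517 to 56786613 after SCL and 20210165 to 46449937 after ECL. Members took 0.183% to 0.226% of all counts in controls, 0.151% to 0.184% after SCL and 0.162% to 0.198% after ECL. Of the 69 members, 63 had at least 1 count in every library. All 8 CA1 pyramidal markers were present in every library, with summed levels of 167 to 229 TPM (the length-scaled counts of a gene out of 1e+06 in its library) in controls, 161 to 206 after SCL and 138 to 296 after ECL. The 8 CA3 pyramidal markers summed to 228 to 282 TPM in controls, and the 8 dentate granule cell markers to 79.0 to 121 TPM. In every control the CA3 sum was above the CA1 sum, though sums over different genes do not measure shares of cells. CA3 sums were 207 to 316 after SCL and 215 to 406 after ECL, and dentate sums 56.9 to 93.2 and 54.4 to 108 TPM. Of the dentate markers, Dsp and C1ql2 had 0 counts in at least 1 library and the other 6 were present in all.

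Levels were compared between genes as TPM, that is, per length of exon. In control CA1 the EphA receptors Epha4 and Epha5, which bind the A-type ephrins, stood at the top. Epha4 had 73.1 ± 8.47 TPM (SD, n = 5 controls) and Epha5 63.6 ± 6.72 TPM, and the ranges of both genes overlapped (62.5 to 86.1 and 58.2 to 75.3 TPM). The next gene, the secreted semaphorin Sema3e, had 28.9 ± 11.4 TPM and at most 48.7 TPM, below every Epha5 value. Nrp1, a neuropilin (26.8 ± 4.89 TPM), Efnb3, a transmembrane ephrin (26.7 ± 2.10 TPM), and Efna3, a lipid-anchored ephrin (24.1 ± 2.95 TPM), followed within each other's spread. In the other families the highest genes were Plxna4 (15.6 ± 3.49 TPM), Sema4d (12.3 ± 3.39 TPM), Unc5d (10.1 ± 1.90 TPM), Ephb1 (9.21 ± 4.45 TPM), Robo2 (8.85 ± 0.962 TPM), Ntn4 (7.55 ± 3.35 TPM) and Slit3 (5.24 ± 2.14 TPM). In all, 16 members reached 10 TPM in controls, 42 lay between 1 and 10 TPM and 11 were under 1 TPM. Of the exon bases of Efna3, 14.1% are shared with the gene Gm15998, and counting took no account of strand.

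**Figure D1:**
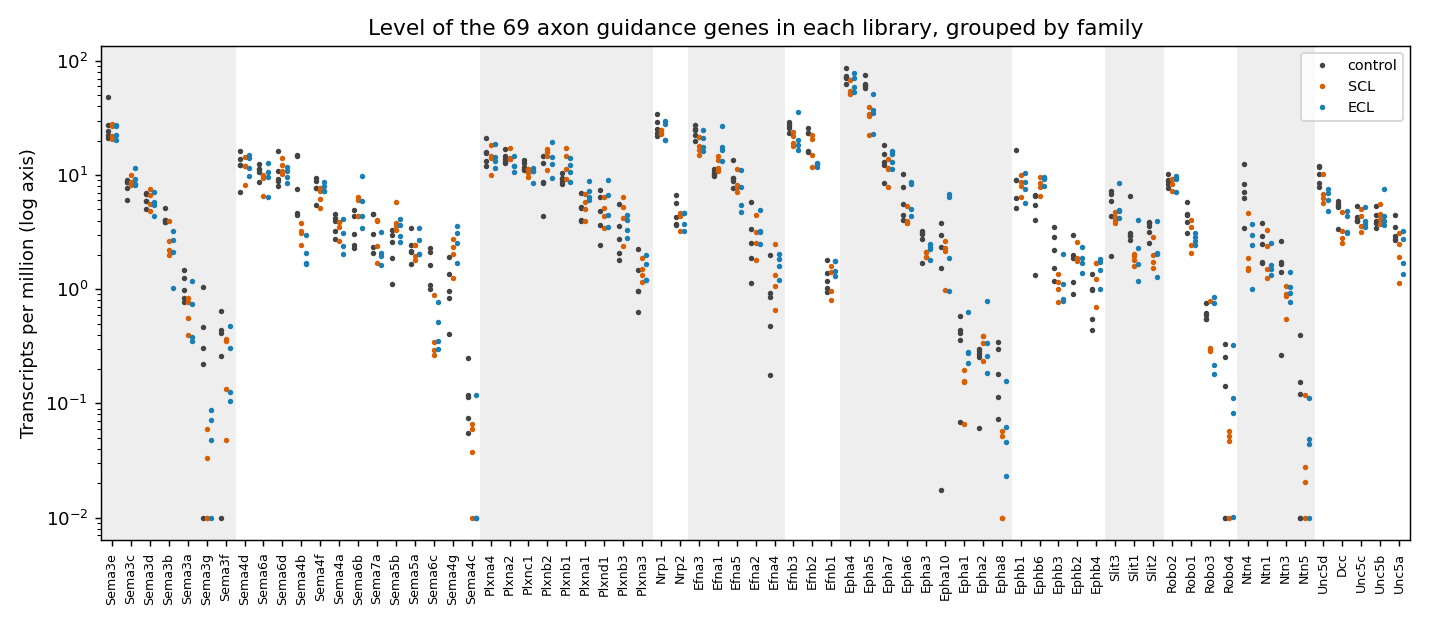
Level in TPM of each of the 69 guidance genes (log axis) in every library, grouped by family in shaded blocks; black points are control, orange SCL and blue ECL libraries, and values under 0.01, including 0, are drawn at 0.01. Epha4 and Epha5 lie highest, and the Epha5 points of both lesion groups lie below those of the controls.

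Tests used counts scaled to a common library size, called normalized counts here, and edgeR's quasi-likelihood test with Benjamini-Hochberg adjustment over all genes tested. A gene was called changed at an adjusted p under 0.05 (two-sided), and it entered a comparison if its normalized counts averaged 150 or more. The labels name biological replicates but not the animal behind each culture, so the p-values measure the spread between cultures. Of the 69 members, 45 were tested in both lesion comparisons, Sema3b after SCL only, Epha10 after ECL only, and 22 in neither.

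After SCL, 6 of the 46 members tested were called, 1 higher and 5 lower. These are 13% of the members, against a background of 24.6% of all 11733 genes tested. The secreted repellents Slit1 and Slit2, the netrin Ntn4, the semaphorin Sema4b and the receptor Epha5 fell, and Plxnb1, a plexin that binds Sema4d, rose. The background was 13% called higher and 11.6% called lower. The median log2 fold change was -0.14 over the members and 0.01 over all genes tested, and 31 of the 46 members differed from control by less than 0.5 on the log2 scale. The normalized counts of SCL and control did not overlap in 7 members (15.2%, against 23.3% of all genes), and 3 of the 7 were called, where 19.4% of all genes met both criteria. The remaining 4 (Efnb3, Ephb6, Sema3b and Sema5b, named after their values were seen) were not called. An alternative test, DESeq2, did call Efnb3 and Sema5b.

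After ECL, 9 of the 46 members tested were called, 3 higher and 6 lower. This is 19.6%, against a background of 27.6% of all 11392 genes tested. Epha5, Sema4b, Ntn4, the ephrin Efnb2, the netrin receptor Unc5d and the Slit receptor Robo1 fell, whereas the ephrin Efna1, the Eph receptor Ephb6 and the plexin Plxna1 rose. The background was 15.1% called higher and 12.4% called lower. The median log2 fold change was -0.06 over the members and -0.01 over all genes tested, and 32 of the 46 differed by less than 0.5 on the log2 scale. ECL and control did not overlap in 6 members (13%, against 24.9% of all genes), and all 6 were called, where 21.5% of all genes met both criteria.

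The direction of the middle of the members depended on the scaling. With scaling factors over all symbols, the median of all genes moved to 0.21 after SCL and 0.18 after ECL. The members' medians then became 0.08 and 0.14, still below those of all genes. Without a filter on low counts they were above, at 0.05 after SCL and 0.09 after ECL against -0.40 and -0.49. After ECL they were also above with a length and GC offset (0.13 against -0.005) and without ECL replicate 1 (0.02 against -0.004). Under every other alternative the members' median stayed below. With scaling over all symbols, 4 members were called higher and 3 lower for SCL. Of all genes 26.9% were then called, and 80.9% of these were higher. For ECL 5 were higher and 3 lower, against 27.7% of all genes called and 78.0% of these higher. The 12 called genes kept their direction in the comparison that called them under every alternative that tested them.

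**Figure D2:**
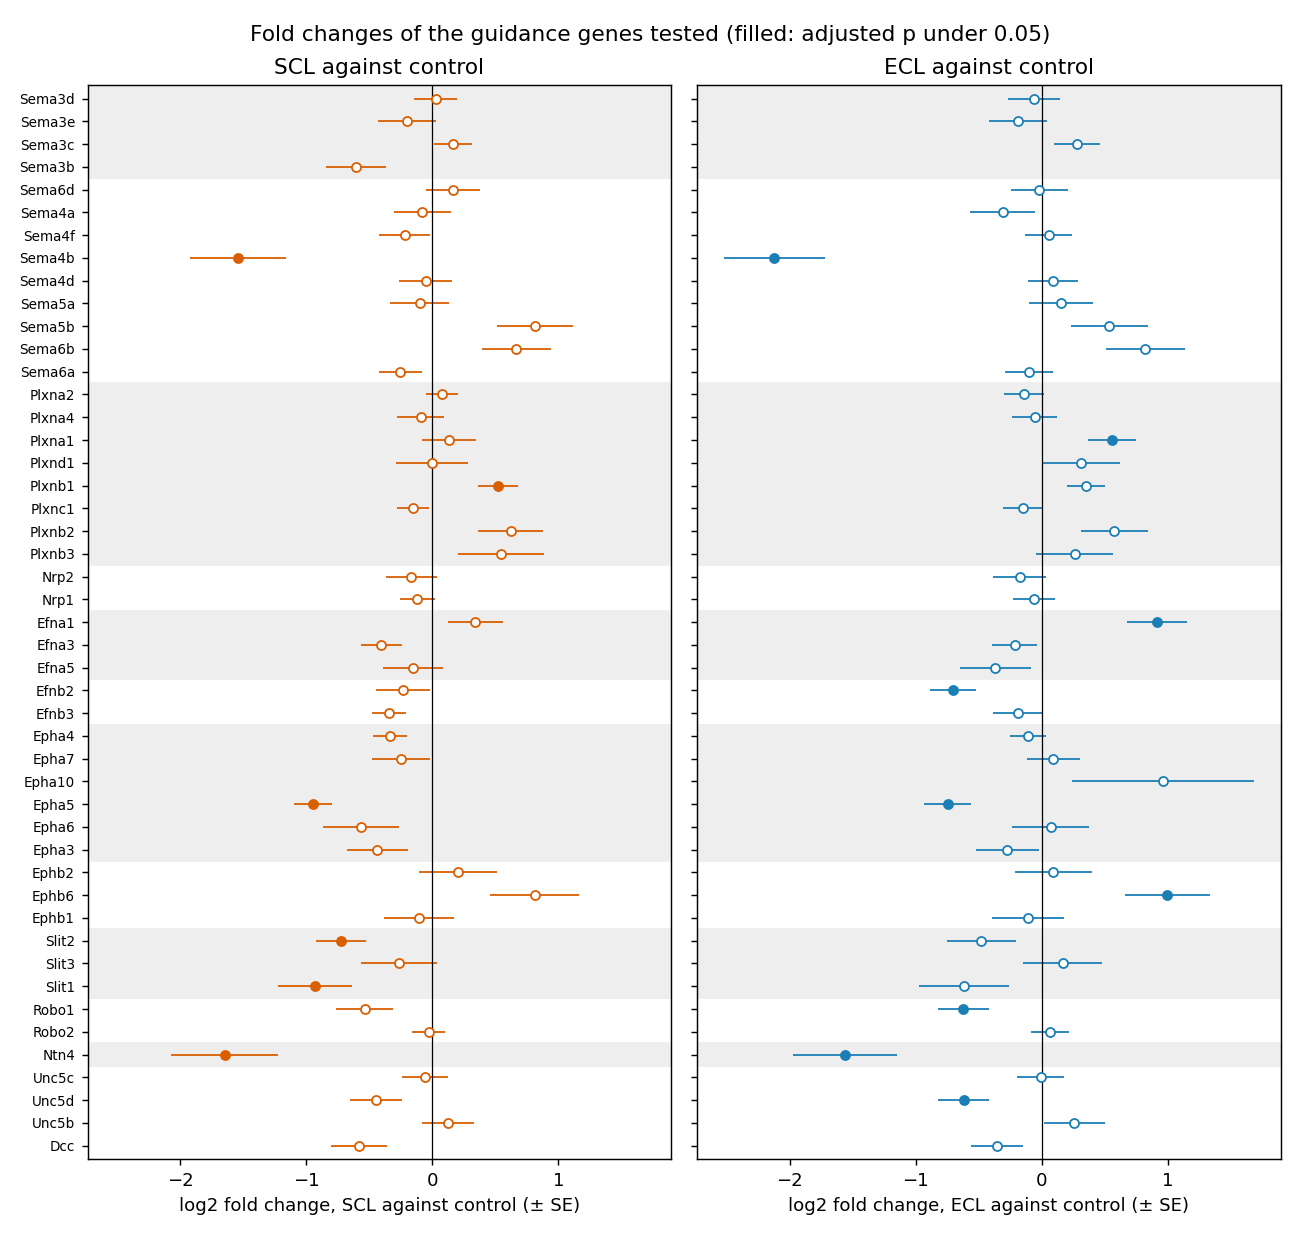
Log2 fold change against control with its standard error for each guidance gene tested, SCL on the left and ECL on the right, ordered by family in shaded blocks; filled points have an adjusted p under 0.05. Sema4b and Ntn4 lie farthest to the left in both panels, and most other genes lie within 0.5 of the zero line.

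Epha5, the receptor at the second highest level, fell after both lesions. The gene lies on chromosome 5 (84054761 to 84417382, minus strand, GRCm38). Its normalized counts in control replicates 1 to 5 were 10531, 10176, 12512, 11552 and 9876. They were 6124, 6420.2, 4237 and 5855 in SCL replicates 1 to 4 and 4162, 6699, 8662 and 6393 in ECL replicates 1 to 4. Every lesioned culture lay below every control. Its log2 fold change was -0.95 ± 0.15 (SE) after SCL (edgeR adjusted p = 0.00215) and -0.75 ± 0.18 after ECL (edgeR adjusted p = 0.00921), so that the SCL cultures held 51.8% and the ECL cultures 59.3% of the control mean. The call after SCL held under all 21 alternatives. After ECL it held under 20 of 21 and was lost once gene length and GC content entered as an offset (-0.46, adjusted p = 0.0775). Epha4, its neighbour in level, differed by -0.34 ± 0.14 after SCL (edgeR adjusted p = 0.0895) and by -0.11 ± 0.15 after ECL (edgeR adjusted p = 0.614). Together Epha4 and Epha5 made up 21.6% to 25.7% of the members' summed TPM in controls, 17.0% to 19.9% after SCL and 19.0% to 21.1% after ECL.

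Sema4b, a transmembrane class 4 semaphorin known from synapse formation, showed the largest fall among the members tested after ECL. The gene lies on chromosome 7 (80186841 to 80226527, plus strand, GRCm38). Control replicates 1 to 5 had 264, 252, 426, 928 and 860.4 normalized counts. SCL replicates 1 to 4 had 192, 212, 154 and 187, and ECL replicates 1 to 4 had 101, 109.8, 168 and 120.1. The controls were spread over more than the lesion groups, and yet no lesioned culture reached the lowest control. The log2 fold change was -1.55 ± 0.38 after SCL (edgeR adjusted p = 0.0125) and -2.12 ± 0.40 after ECL (edgeR adjusted p = 0.00198), or 34.1% and 22.8% of the control mean. Sex was read from the column headings, by which 2 of the 5 controls, 1 of the 4 SCL and 3 of the 4 ECL cultures were male. Male controls had 252 to 264 and female controls 426 to 928. Within females the SCL cultures had 154 to 212, and within males the ECL cultures had 109.8 to 168. With sex as a term the log2 fold changes were -1.51 and -1.62, and both calls held. The ECL group passed the mean minimum only together with the controls, as its own mean was 125.

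Ntn4, a netrin related to laminins and known from basement membranes, fell after both lesions. The gene lies on chromosome 10 (93640681 to 93747207, plus strand, GRCm38). Control replicates 1 to 5 had 129.6, 317, 262, 528 and 238 normalized counts, against 61.3, 172, 78.5 and 58.1 in SCL replicates 1 to 4 and 40.8, 103, 141 and 116 in ECL replicates 1 to 4. Only control replicate 1 overlapped the lesion groups. On the log2 scale the difference was -1.65 ± 0.42 after SCL (edgeR adjusted p = 0.0148) and -1.56 ± 0.41 after ECL (edgeR adjusted p = 0.0126). Ntn4 entered the tests through its level in controls, since both lesion groups had means under the minimum, and it was not tested between the lesions. The calls held without any 1 library that could be left out, but without control replicate 4 its mean in the ECL comparison fell under the minimum and it was not tested.

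The Slit ligands and Robo receptors were set beside each other. Slit1 had 161, 185, 382, 193 and 179 normalized counts in control replicates 1 to 5, against 127, 118, 107 and 109 in SCL replicates 1 to 4 and 146, 113, 241 and 71.9 in ECL replicates 1 to 4. No SCL culture reached the controls. The ECL culture with 241 lay within the range of the controls, and the other ECL cultures lay below it. Slit1 differed by -0.93 ± 0.29 after SCL (edgeR adjusted p = 0.0346) and -0.61 ± 0.36 after ECL (edgeR adjusted p = 0.217). Like Ntn4, it passed the minimum through its control mean of 220.1, as the SCL and ECL means were 115 and 143. The SCL call was lost without SCL replicate 1 (-0.98), 3 (-0.90) or 4 (-0.91), with scaling over all symbols or no filter (-0.71 each), and with a block on the replicate number of the labels (-0.92) or of the column headings (-0.93). Without control replicate 3, the highest of the controls, or without SCL replicate 2, the mean of Slit1 in the fit fell under the minimum and the gene was not tested. DESeq2 and counts divided by 2 also gave no result for Slit1 after SCL.

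Slit2 ranged from 654 to 1031 in controls, and it spanned 428 to 735 in SCL and 330.0 to 1079 in ECL cultures. It differed by -0.73 ± 0.20 after SCL (edgeR adjusted p = 0.0210) and by -0.48 ± 0.27 after ECL (edgeR adjusted p = 0.207). The SCL call was lost without SCL replicate 1 (-0.63) or 2 (-0.63), with the offset for length and GC content (-0.29, adjusted p = 0.222), with scaling over all symbols (-0.52), without a filter on low counts (-0.52) and in a single fit of all libraries (-0.73). ECL replicate 1 held the 1079, and without it Slit2 was called lower after ECL (-0.86, edgeR adjusted p = 0.0200). Slit3, the Slit with the highest level, differed by -0.27 ± 0.30 and 0.16 ± 0.32.

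Robo1 had 652, 521, 756, 1076 and 744 normalized counts in control replicates 1 to 5, against 446, 562, 382 and 676 in SCL replicates 1 to 4 and 473, 458, 517 and 488 in ECL replicates 1 to 4. The highest ECL culture lay just below the lowest control, and the SCL cultures overlapped the controls. Robo1 differed by -0.62 ± 0.20 after ECL (edgeR adjusted p = 0.0341) and -0.54 ± 0.22 after SCL (edgeR adjusted p = 0.0954). The ECL call was lost without control replicate 3 (-0.62), 4 (-0.46) or 5 (-0.63) or ECL replicate 1 (-0.60), 2 (-0.59) or 4 (-0.62). It was also lost with sex as a term (-0.48, adjusted p = 0.125), with the offset (-0.34, adjusted p = 0.141), with scaling over all symbols or no filter (-0.41 each), and with either block (-0.58 and -0.60). Male controls had 521 to 652 and male ECL cultures 458 to 517, while female controls had 744 to 1076. Robo2, at a higher level, differed by -0.03 ± 0.13 and 0.06 ± 0.15.

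Among the netrin receptors, Unc5d, which mediates repulsion, ranged from 721 to 1249.7 in controls, 518 to 952 in SCL and 446 to 746 in ECL cultures. Unc5d differed by -0.62 ± 0.20 after ECL (edgeR adjusted p = 0.0354) and -0.45 ± 0.21 after SCL (edgeR adjusted p = 0.127). The ECL call was lost without control replicate 4 (-0.52) or 5 (-0.57) or ECL replicate 2 (-0.62), 3 (-0.49) or 4 (-0.65), with sex as a term (-0.53), the offset (-0.45), scaling over all symbols or no filter (-0.42 each), or either block (-0.56 and -0.61). Without SCL replicate 4 the gene was called after SCL (-0.63). Dcc, the netrin receptor that attracts axons, differed by -0.58 ± 0.22 after SCL (edgeR adjusted p = 0.0694) and by -0.35 ± 0.21 after ECL (edgeR adjusted p = 0.222). DESeq2 called Dcc lower after SCL (-0.59, DESeq2 adjusted p = 0.0443). Unc5b and Unc5c lay between -0.06 and 0.26 in both comparisons.

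The ephrins moved in both directions after ECL. Efna1, a lipid-anchored ephrin that binds EphA receptors, had 190.1, 194, 181, 200.3 and 208 normalized counts in control replicates 1 to 5. It had 276, 205, 302 and 202 in SCL replicates 1 to 4 and 531, 367, 246 and 317 in ECL replicates 1 to 4. The controls lay close together and every ECL culture exceeded them. The log2 fold change was 0.92 ± 0.24 after ECL (edgeR adjusted p = 0.0123), a 1.89-fold level, and 0.34 ± 0.22 after SCL (edgeR adjusted p = 0.265). The call after ECL held without any 1 library and was lost with that offset (0.47, adjusted p = 0.141).

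Efnb2, a transmembrane ephrin that binds EphB receptors and is also known from arteries, had 1620.0, 1089, 1113, 1787 and 1783 in control replicates 1 to 5. It had 1682, 1386, 897 and 1038 in SCL replicates 1 to 4 and 916, 976, 812 and 901 in ECL replicates 1 to 4. Every ECL culture lay below the controls, and the SCL cultures spread across the range of both. The log2 fold change was -0.71 ± 0.18 after ECL (edgeR adjusted p = 0.0113) and -0.24 ± 0.22 after SCL (edgeR adjusted p = 0.445). The ECL call held without any 1 library but was lost with scaling over all symbols or no filter (-0.51 each). Efnb3 and Efna3, the ephrins with the highest levels, differed by -0.35 ± 0.13 and -0.41 ± 0.16 after SCL (edgeR adjusted p = 0.0699 and 0.0796) and by -0.19 ± 0.19 and -0.21 ± 0.18 after ECL. Efnb3 was called lower after SCL by DESeq2 (-0.35) and with the offset for length and GC content (-0.55). With that offset Efna3 was called lower after SCL (-0.72) and ECL (-0.60).

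Ephb6, an Eph receptor whose kinase domain is inactive, had 248, 209, 249.5, 56.4 and 154 normalized counts in control replicates 1 to 5. It had 270.3, 359, 360.2 and 301 in SCL replicates 1 to 4 and 375, 346, 361 and 376 in ECL replicates 1 to 4. All lesioned cultures exceeded all controls, and control replicate 4 was the lowest of the 13. The log2 fold change was 1.00 ± 0.33 after ECL (edgeR adjusted p = 0.0390) and 0.81 ± 0.35 after SCL (edgeR adjusted p = 0.105). The ECL call was lost without control replicate 5 (0.94) or without ECL replicate 1 (0.99), 2 (1.03), 3 (1.00) or 4 (0.99), and with sex as a term (0.92) or the heading number as a block (1.00). Ephb1, the EphB receptor with the highest level, differed by -0.11 ± 0.27 and -0.11 ± 0.29.

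**Figure D3:**
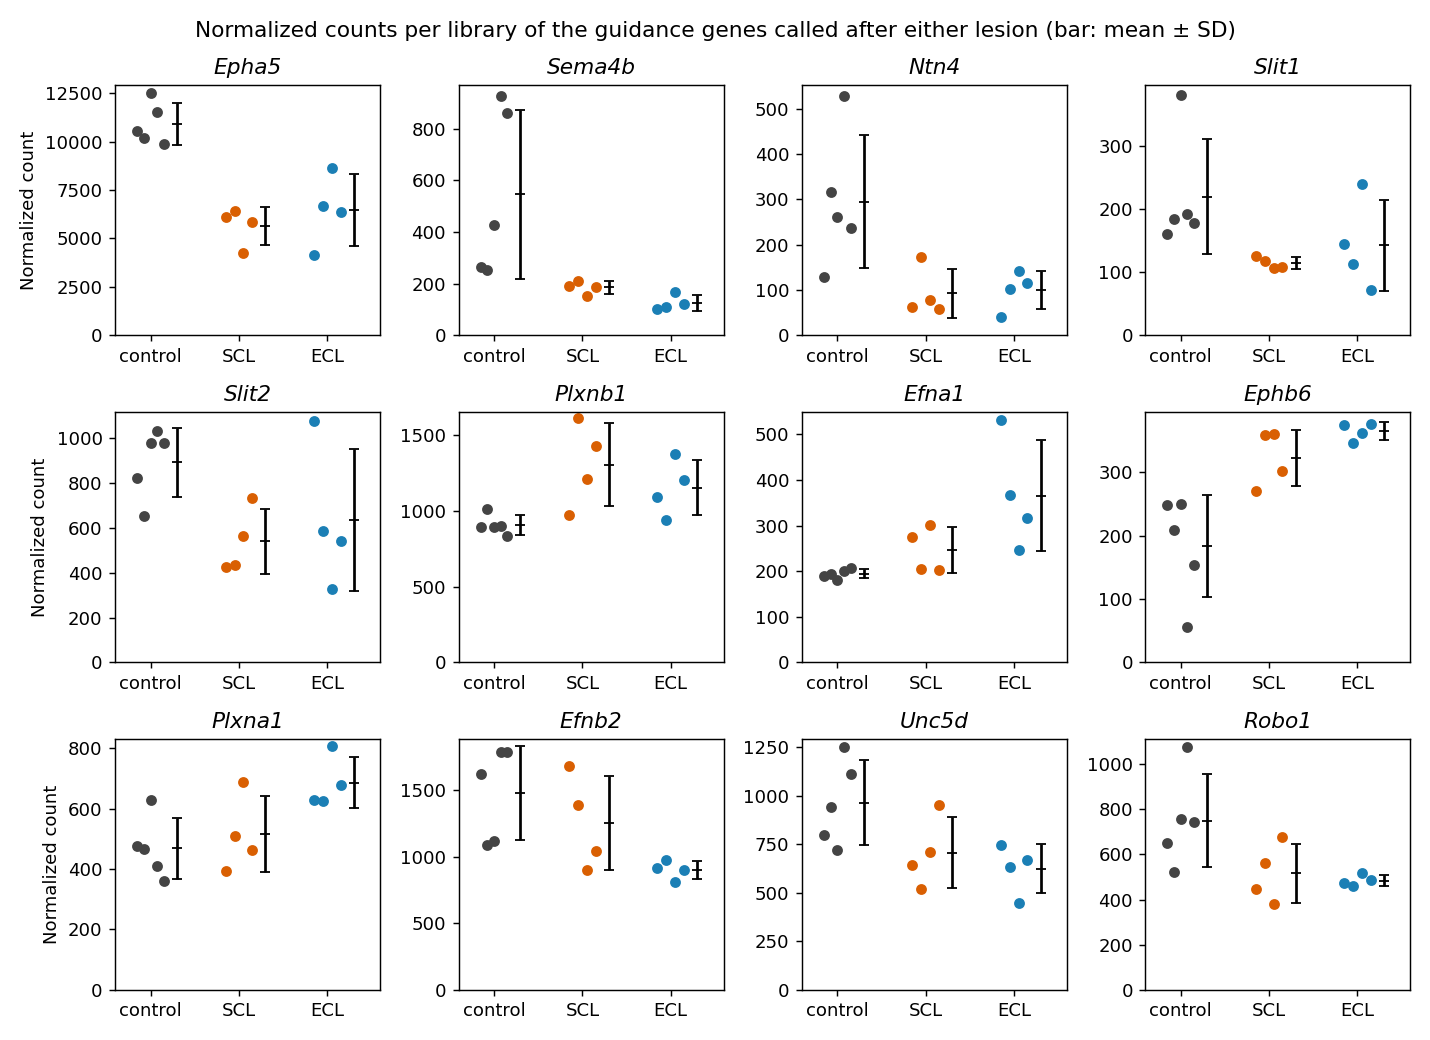
Normalized counts of the 12 guidance genes called after either lesion, 1 point per library in 5 control, 4 SCL and 4 ECL cultures, with the mean and SD of each group as a bar; each vertical axis starts at 0. Epha5, Sema4b and Ephb6 show no overlap of either lesion group with the controls, and Slit2 after ECL spans 330.0 to 1079.

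Of the plexins, Plxnb1 ranged from 838 to 1016 in controls, and it spanned 973 to 1614 in SCL and 943 to 1374 in ECL cultures. It rose by 0.52 ± 0.16 on the log2 scale after SCL (edgeR adjusted p = 0.0300), and the value after ECL was 0.35 ± 0.15 (edgeR adjusted p = 0.0928). The SCL call was lost without control replicate 1 (0.52) or 5 (0.49) or SCL replicate 2 (0.41), 3 (0.56) or 4 (0.48), and with the replicate block (0.47). Its ligand Sema4d, the membrane-bound semaphorin with the highest level, differed by -0.05 ± 0.21 and 0.09 ± 0.20. Plxna1, which signals for class 3 semaphorins together with neuropilins, ranged from 361 to 628 in controls, 394 to 689 in SCL and 626 to 807 in ECL cultures. It rose by 0.56 ± 0.19 after ECL (edgeR adjusted p = 0.0432), and the value after SCL was 0.14 ± 0.21 (edgeR adjusted p = 0.681).

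The ECL call of Plxna1 was lost without any 1 of 4 controls (replicate 1, 0.56; replicate 2, 0.55; replicate 4, 0.50; replicate 5, 0.47) and without ECL replicate 1 (0.61), 2 (0.60), 3 (0.47) or 4 (0.57), as well as with sex as a term (0.53) or either block (0.49 and 0.58). Of its exon bases, 10.7% are shared with Gm26811 on the opposite strand, and 2.68% of those of Plxnb1 with Gm7628, so that reads of these genes cannot be told apart there. The semaphorin receptors at the highest levels were close to control, with -0.12 ± 0.14 and -0.06 ± 0.16 for Nrp1 after SCL and ECL and -0.09 ± 0.19 and -0.06 ± 0.18 for Plxna4. Of the 7 secreted class 3 semaphorins, 4 were tested after SCL and 3 after ECL, and none of these was called. Sema3e, the highest of them, differed by -0.20 ± 0.23 and -0.19 ± 0.23.

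Between the lesions directly, none of 48 members tested differed by edgeR at an adjusted p under 0.05, and the background was 0% of 12478 genes. In none of these 48 were the ECL and SCL cultures apart without overlap, against 3.85% of all genes tested. At an unadjusted p under 0.05 there were 5 members and 918 genes, and DESeq2 called 62 genes, none of them a member. These 5 were Sema4b (ECL minus SCL, -0.57 ± 0.22), Epha6 (0.64 ± 0.25), Efnb2 (-0.46 ± 0.19), Efna1 (0.58 ± 0.25) and Plxna1 (0.42 ± 0.18), and the smallest edgeR adjusted p among members was 0.621. Epha5 differed by 0.21 ± 0.22, and Slit1 and Slit2 by 0.32 ± 0.31 and 0.25 ± 0.31. By the column headings, 1 of the 4 SCL and 3 of the 4 ECL cultures were male, so sex and lesion were partly aligned. With sex as a term the median over the members moved from 0.107 to -0.012, and it stayed near 0.006 over all genes. No member was then called, against 1 of all genes. Both lesion comparisons used the same 5 controls, and of the 12 genes called, 3 were called in both, 3 after SCL only and 6 after ECL only. Epha10, named after its values were seen, was the exception among the alternatives. Without a filter on low counts it was called higher in ECL than in SCL cultures (0.996, edgeR adjusted p = 0.00981), where 0.491% of all genes were called, and with the minimum of 150 its adjusted p was 0.720. Its ECL cultures had 74.6, 155, 498 and 483 normalized counts and its SCL cultures 78.6 to 193, so the groups overlapped.

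Members under the mean minimum had at most 288 counts in any library where no comparison tested them. With the minimum lowered to 50, 7 of 57 members tested were called after SCL and 11 of 57 after ECL, against 20.4% and 23.5% of all genes. Sema6c, a transmembrane semaphorin chosen here after its values were seen, was lower after SCL (-1.90 ± 0.45, edgeR adjusted p = 0.0120) and after ECL (-1.74 ± 0.40, edgeR adjusted p = 0.00714). It had 60.5, 65.3, 136, 141 and 98.9 normalized counts in control replicates 1 to 5, against 17.3, 19.97, 19.3 and 53.5 in SCL replicates 1 to 4 and 22.7, 20.2, 45.7 and 31.4 in ECL replicates 1 to 4. No lesioned culture reached a control. It passed this minimum through its control mean of 100.4, as the lesion means were 27.5 and 30.0. Sema4g, likewise chosen after its values were seen, had 39.5 to 169 in controls, 119.8 to 267 after SCL and 157 to 323 after ECL. Its log2 fold change was 1.38 ± 0.37 after ECL (edgeR adjusted p = 0.0151) and 0.99 ± 0.39 after SCL (edgeR adjusted p = 0.0844).

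The wider pathway was read from lists of genes that are no members. Of 55 tested genes that carry guidance signals inside the cell, 6 were higher and 12 lower in the SCL comparison. In the ECL comparison 8 were higher and 10 lower, and the medians were -0.16 after SCL and -0.12 after ECL. The calls were 32.7% of the tested genes in each comparison, against 24.6% of all genes after SCL and 27.6% after ECL. Cfl1, the actin-severing cofilin, rose by 1.38 ± 0.27 after SCL and 1.60 ± 0.20 after ECL, and the kinase Cdk5 rose by 1.10 ± 0.26 and 1.47 ± 0.25. The phosphatase Ptpn11 had -0.46 ± 0.15 and -0.82 ± 0.13, and Evl, which promotes actin filament growth, had -0.59 ± 0.17 and -1.003 ± 0.18. All 4 were called in both comparisons.

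Of 39 tested genes of other guidance cues and receptors, 1 was higher and 10 lower in the SCL comparison, 2 and 9 in the ECL comparison. The teneurins Tenm2 and Tenm3, which bridge synapses, fell in both, with -0.95 ± 0.11 and -0.99 ± 0.20 after SCL and -0.68 ± 0.15 and -1.07 ± 0.20 after ECL. Neo1, a receptor for netrins, also fell in both (-0.44 ± 0.14 and -0.62 ± 0.13), and the adhesion molecule L1cam rose after ECL (0.94 ± 0.19). Of 11 tested sheddases and co-receptors, 1 was higher and 3 lower after each lesion. Vegfa, a neuropilin ligand, had -1.37 ± 0.28 and -1.67 ± 0.19, its receptor Flt1 -0.91 ± 0.19 and -0.85 ± 0.21, and Adam10, a protease that releases ephrins, -1.12 ± 0.27 and -1.60 ± 0.27. Sdc3, a heparan sulfate proteoglycan, rose by 1.08 in both. The share of all genes called was 24.6% after SCL and 27.6% after ECL.

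Markers of some cell types moved with the lesions, beside 24.6% of all genes called after SCL and 27.6% after ECL. Of 12 microglia markers, all present in every library, 12 were called higher after SCL and 8 after ECL, and their summed level was 722 to 1065 TPM in controls, 1844 to 4371 TPM after SCL and 2246 to 3189 TPM after ECL. Of 10 astrocyte markers, 5 were higher in the SCL comparison, and 4 higher and 1 lower in that with ECL, with summed levels of 3678 to 4646, 4619 to 6752 and 4396 to 5875 TPM. Of 10 pan-neuronal markers, 4 were lower after SCL and 6 after ECL, with 1607 to 1660, 1235 to 1543 and 1212 to 1686 TPM. Of 10 endothelial and mural markers 3 were tested, and Flt1 was lower in both comparisons, while Pdgfrb (0.32 and 0.38) and Rgs5 (0.28 and 0.44) were not called, and Cldn5, Cdh5, Tie1 and Vtn had 0 counts in at least 1 library. The other lists had 2 oligodendrocyte markers of 12 higher after each lesion, 1 CA1 marker of 8 lower after SCL, and 1 higher and 2 lower interneuron markers of 10 after SCL against 2 and 2 after ECL. Fibroblast markers had 1 of 3 tested lower after SCL, dentate markers 1 of 5 lower after each, and CA3 markers none called (6 tested after SCL, 5 after ECL). The oligodendrocyte, CA1, CA3 and dentate lists thus had smaller shares called than all genes after both lesions. The part of these marker changes in the fall of Epha5, Sema4b and the other guidance genes was not tested, and in tissue of mixed cells, fewer cells of a type and less RNA per cell cannot be told apart.

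**Figure D4:**
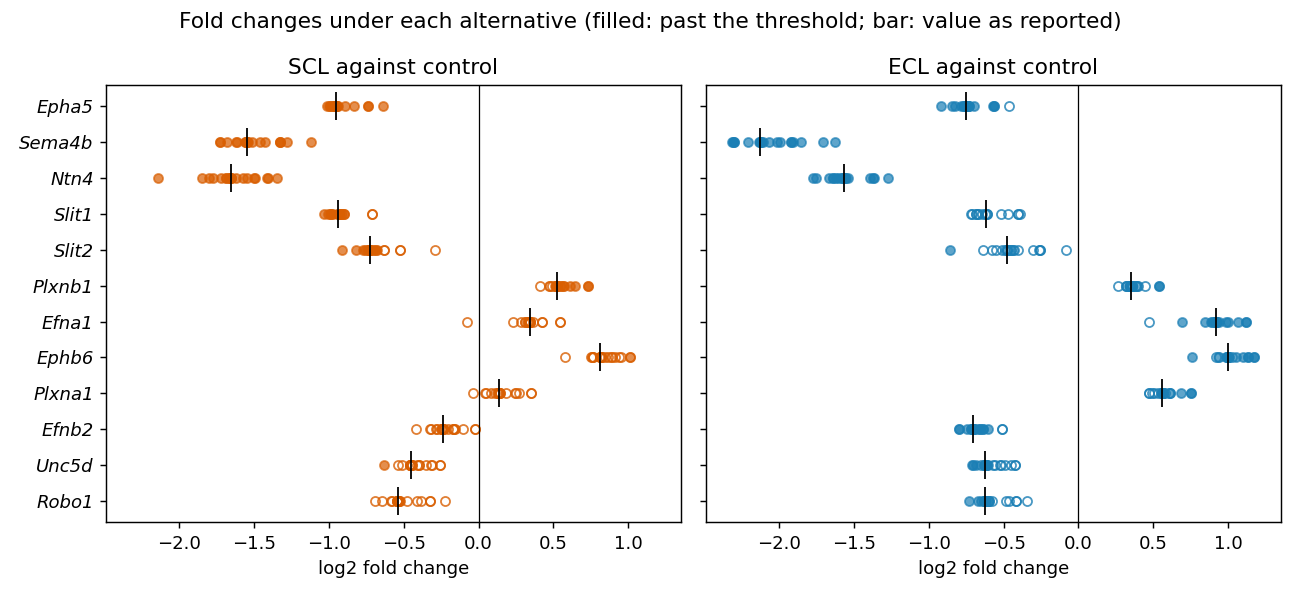
Log2 fold changes of the 12 called guidance genes under each alternative, SCL on the left and ECL on the right; filled points passed the threshold, open points did not, and the vertical bar is the value reported. Epha5, Sema4b and Ntn4 stay filled and left of 0 in nearly every alternative, whereas Plxna1, Unc5d and Robo1 after ECL hold many open points.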

How the data were processed

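The authors trimmed reads with CUTADAPT 3.5, mapped them with STAR 2.7.8a to mm10 (GRCm38) and counted them without strand on GENCODE M25 genes with featureCounts 2.0.1. The deposited values are raw counts per gene symbol, whole numbers without normalization. Between 63.0% and 74.3% of the counts from 1 to 20 were even in each library. No batch or date is given in the sources used here.

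The test was the quasi-likelihood test of edgeR 4.0.16 under R 4.3.3 (functions estimateDisp, glmQLFit, glmQLFTest; trimmed mean of M values over the genes tested; mean minimum of 150; Benjamini-Hochberg; threshold 0.05; two-sided), in a fit of its own for each pair of groups. For the SE, the size of each log2 fold change was divided by the root of its F. TPM were computed from the counts with exon lengths of GENCODE M21, which held 53292 of the 55291 symbols, and coordinates are from it. The fits were tested on simulated data. With 100 genes changed at each size, calls covered 79% (2-fold) and 95% (4-fold) for SCL (11619 genes), 66% and 91% for ECL (11243) and 71% and 96% for ECL against SCL (12343), and 3.33%, 5.42% and 7.22% of the calls were false. Far fewer genes were changed in the simulations than were called in the lesion comparisons (24.6% after SCL and 27.6% after ECL). The simulated rates therefore need not hold for those comparisons. Alternatives used DESeq2 1.42.0, other scalings and minimums, a single fit, blocks, sex, divided counts, a length and GC offset (mgcv 1.9.3) and each library left out.

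The members and lists were chosen with earlier results of these data known. Named were every member called, the member of each family with the highest TPM in controls, at most 4 called genes of each pathway list by adjusted p, and partners by known pairing. Values of every library are given for members called in both lesions or without overlap. The motifs were chosen after seeing the data.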

Additional observations from a re-analysis of the deposited data

Results flagged for a closer look

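A sample stood apart from the rest of its group in 2 of 66 groups of normalized counts tested by Dixon's criterion, and chance flags about 1 in 20 groups. Slit1 in control replicate 3 had 382 normalized counts, against 161 to 193 in the other controls. Robo2 in SCL replicate 3 had 1375, against 1548 to 1573 in the other SCL cultures.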

How the results depend on the processing

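The members called after SCL were 6 (1 higher, 5 lower) and after ECL 9 (3 higher, 6 lower). DESeq2 called 8 of 43 members after SCL (2 higher), against 30.3% of all genes, and 9 of 43 after ECL, against 32.2%. Its SCL calls included Efnb3 (-0.35), Dcc (-0.59) and Sema5b (0.81), which edgeR did not call. Scaling over all symbols gave 4 higher and 3 lower for SCL, and 5 and 3 for ECL, where 80.9% and 78.0% of the calls over all genes were higher. Without a filter on low counts, 10 of 69 were called after SCL (5 higher) against 11.2% of all 48069 genes, and 12 of 69 after ECL (8 higher) against 16.8% of all 47784. The SCL share was then above that of all genes and the ECL share slightly above, where both were below with the minimum of 150. Also called was 1, Epha10, higher in ECL against SCL, where 2 ECL cultures had 483 and 498 normalized counts and the SCL cultures 78.6 to 193. A single fit of all 13 libraries gave 3 higher after SCL and 5 higher after ECL, where 27.5% and 30.9% of all genes were called. Sex as a term gave 5 called after ECL (1 higher), against 20.8% of all genes. Counts divided by 2 gave 3 lower after SCL and 5 called after ECL (1 higher), and fewer genes then passed the minimum. Of all genes, 28.1% and 30.0% were called with divided counts. The offset for length and GC content gave 10 called after SCL (4 higher), against 23.7% of all genes. With it the median over the members was -0.05 after SCL and 0.13 after ECL, against -0.014 and -0.005 over all genes. At a threshold of 0.01, 1 remained after SCL (0 higher, 1 lower) and 2 after ECL (0 higher, 2 lower). At that threshold 8.95% and 13.1% of all genes were called. The cause was not tested where none is given.

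Without 1 library each, the members called ran from 3 (without SCL replicate 2) to 7 after SCL (0 to 3 higher, 3 to 6 lower) and from 5 (without ECL replicate 2) to 10 (without control replicate 3) after ECL (1 to 5 higher, 3 to 6 lower). Of all genes, 14.5% to 23.9% were called in these SCL fits and 18.5% to 27.0% in the ECL fits. Between the lesions no member was called in any of these fits, against at most 0.437% of all genes. No named gene changed sign in a comparison that called it, under any alternative that tested it. In the SCL comparison, which called neither, Efna1 ran from -0.07 to 0.55 and Plxna1 from -0.03 to 0.35. Of 1319 values of named genes, 76 lost a call and 9 gained one.

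The replicate number as a block gave 4 called after SCL (0 higher) and 6 after ECL, against 20.1% and 23.5% of all genes. Same-numbered libraries deviated together with correlations of -0.13 to 0.23 for SCL, -0.14 to 0.40 for ECL and -0.15 to 0.53 between the lesions, so the numbers were not read as pairs. A block on the number in the column headings, added after seeing the data, gave 2 higher after SCL and 5 called after ECL (1 higher). With that block 15.5% and 20.1% of all genes were called. Library totals and the minimum of 150 limit what can be said of the 22 members tested after neither lesion.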
